A study of Mus musculus with 10 samples.

Results

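The genes described here are the 4 class IIa histone deacetylases (Hdac4, Hdac5, Hdac7 and Hdac9) and 3 myocyte enhancer factor 2 genes (Mef2a, Mef2c and Mef2d), which are the partners of these deacetylases in the nucleus. They were chosen by name and not by a measured value, and they are 7 of the 51789 genes in the count table. All 7 had enough counts to be tested, among 15232 genes tested.

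Cardiomyocytes were isolated from mouse hearts on day 4 after surgical myocardial infarction (MI), and their RNA was sequenced in 10 libraries. The NLC-MI group held 5 libraries from non-transgenic littermate controls, and the TgGRK5-MI group held 5 libraries from mice that overexpress the G protein-coupled receptor kinase GRK5 in cardiomyocytes only. Every library thus came from an infarcted heart, and sham-operated hearts are not among them. The comparison asked what excess GRK5 does to the cardiomyocyte transcriptome after MI. The promoter that drives the transgene is not given in the sources used here.

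Class IIa histone deacetylases have little catalytic activity of their own and act mainly as scaffolds, which bind MEF2 on DNA and bring in corepressor complexes with HDAC3. Kinases such as CaMKII, protein kinase D and, in the cardiomyocyte nucleus, GRK5 phosphorylate them, whereupon 14-3-3 proteins carry them out to the cytoplasm and MEF2 is freed to switch on muscle and hypertrophic genes. Most of this control acts on the protein, by phosphorylation and location, which RNA counts do not measure.

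Promoter windows from RefSeq on GRCm38.p6, which run from 250 bases before to 50 bases after an annotated start, were searched on both strands for the MEF2 consensus site, the A/T-rich element to which MEF2 binds. The site was found in 2 of the 13 windows of the 7 genes (15.4%), 1 of Hdac5 and 1 of Mef2a, against 1047 of 32851 windows of all genes (3.19%). Of 22 MEF2 target genes in muscle with a window, 4 had the site in at least 1 window (18.2%). That share is per gene and not per window, so it cannot be set directly beside the other 2. Both windows are shown because a deacetylase and a MEF2 gene carry the letters of a MEF2 site within 20 bases of an annotated start. Each lies on the minus strand and is written 5′ to 3′ along the gene, at chr11:102230123-102230422 for Hdac5 and chr7:67372809-67373108 for Mef2a, with the match to the consensus in capitals.
Hdac5: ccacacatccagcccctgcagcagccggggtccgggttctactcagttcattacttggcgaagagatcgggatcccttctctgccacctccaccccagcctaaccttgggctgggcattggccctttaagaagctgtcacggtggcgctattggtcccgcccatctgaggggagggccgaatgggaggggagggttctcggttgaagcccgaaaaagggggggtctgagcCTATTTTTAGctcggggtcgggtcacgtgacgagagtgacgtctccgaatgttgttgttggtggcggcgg
Mef2a: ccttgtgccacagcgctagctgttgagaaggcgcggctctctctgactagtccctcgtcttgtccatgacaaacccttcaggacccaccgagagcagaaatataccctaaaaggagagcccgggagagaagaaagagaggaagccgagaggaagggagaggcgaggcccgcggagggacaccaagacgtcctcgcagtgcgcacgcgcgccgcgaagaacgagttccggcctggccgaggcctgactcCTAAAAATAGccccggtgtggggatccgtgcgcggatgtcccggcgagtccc
The match begins at position -20 from the start in Hdac5 and at position -2 in Mef2a. A match describes the sequence only, and no binding of MEF2 was measured.

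The targeted gene was checked first. Grk5 averaged 60.4 ± 9.5 CPM (counts scaled to a common library size, SD, n = 5) in NLC-MI, where it ranged from 46.5 to 73.1, and 1222 ± 472 CPM (SD, n = 5) in TgGRK5-MI, where it ranged from 552 to 1700. The groups did not overlap, and the log2 fold change was 4.34 ± 0.32 (SE, edgeR quasi-likelihood F test, Benjamini-Hochberg adjusted p = 0.000246). The libraries held between 7968779 and 23381527 counts. The 3 with the fewest counts were NLC-MI replicate 3, TgGRK5-MI replicate 4 and TgGRK5-MI replicate 3, and they stood apart from the other 7 on the first principal component, which held 43.9% of the variance. Group differences and the pair and marker correlations described for the 7 genes are therefore also given for the other 7 libraries alone.

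Transcripts of all 7 genes were detected in every library, with the MEF2 genes and 2 of the 4 deacetylases well above the others. Levels were compared between genes only per kilobase of exon, as CPM per kb over the union of a gene's exons. Mef2d, the MEF2 factor that is known to transmit stress signals in the adult heart, had the highest mean level, 22.1 ± 6.38 CPM per kb (SD, n = 10). Mef2a, known for its part in mitochondrial and contractile gene expression in the adult heart, followed at 12.6 ± 3.26 CPM per kb, and Mef2c, required for heart development, was the lowest of the 3 at 5.14 ± 1.75 CPM per kb. Mef2b, the fourth MEF2 gene, had between 0 and 4 counts in a library and was not tested.

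Among the deacetylases, Hdac7 and Hdac5 were at 9.01 ± 2.01 and 8.20 ± 1.83 CPM per kb, while Hdac9 and Hdac4 were at 1.46 ± 0.457 and 1.06 ± 0.405 CPM per kb (SD, n = 10). Hdac7 is known chiefly from endothelial cells and thymocytes, and Hdac5 and Hdac9 are known to restrain stress-induced growth of the heart. The step from Mef2c down to Hdac9 was 3.53-fold and held in 10 of 10 libraries, as did the step from Mef2d to Mef2a. The order of neighbours was less firm elsewhere: Mef2a exceeded Hdac7 in 7 libraries, Hdac7 exceeded Hdac5 in 7, Hdac5 exceeded Mef2c in 8 and Hdac9 exceeded Hdac4 in 9 of 10. With the longest coding transcript as the length, Mef2a (33.3 CPM per kb) came above Mef2d (24.5 CPM per kb) in 10 of 10 libraries and Hdac5 came level with Hdac7 (14.8 and 14.4 CPM per kb), so the order within those pairs depends on the transcript assumed.

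**Figure D1:**
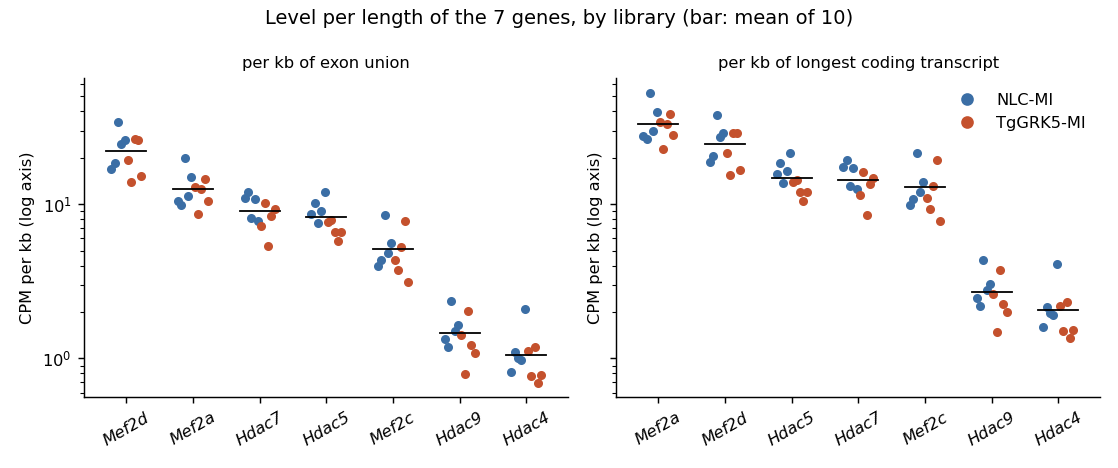
Level of each gene in each library in CPM per kilobase on a log axis, with the exon union (left) or the longest coding transcript (right) as the length. Points are libraries, colored by group, and bars are means of 10. Hdac9 and Hdac4 lie below the other 5 genes with either length, while Mef2a and Mef2d change places.

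The make-up of each family was close in the 2 groups. Hdac7 and Hdac5 together supplied most of the class IIa transcripts per length, Hdac7 with 44.8% ± 7.04 in NLC-MI and 46.5% ± 7.86 in TgGRK5-MI, and Hdac5 with 42.5% ± 4.71 and 40.3% ± 3.69 (SD, n = 5). Hdac9 supplied 7.42% ± 2.85 and 7.86% ± 3.46, and Hdac4 supplied 5.37% ± 2.06 and 5.36% ± 1.69. Within the MEF2 genes, Mef2d supplied 56.3% ± 2.55 in NLC-MI and 54.4% ± 2.98 in TgGRK5-MI, Mef2a 31.04% ± 2.15 and 32.6% ± 3.46, and Mef2c 12.7% ± 0.806 and 13.0% ± 2.08. Each of these differences was smaller than the SD of either group, and none was tested.

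All 7 genes had a lower mean in TgGRK5-MI than in NLC-MI, but in none did the difference pass the threshold of an adjusted p under 0.10. By edgeR 0 of the 7 passed, where 12 of the 15232 genes tested did (0.0788%), and 0 passed by DESeq2, where 0.397% of genes did, or by limma-voom, where 0.328% did. At an unadjusted p under 0.05, 1 of the 7 was lower by edgeR (Hdac5), against 2.08% of all genes lower and 1.77% higher, 1 was lower by DESeq2 (Hdac5), against 1.73% of all genes, and 2 by limma-voom (Hdac5 and Hdac7), against 4.41%. All 7 log2 fold changes were below 0, as were 49.8% of those of all genes, and their median was -0.29 against 0.00128 over all genes tested. In bulk RNA, fewer cells of a type and less RNA per cell cannot be told apart.

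**Figure D2:**
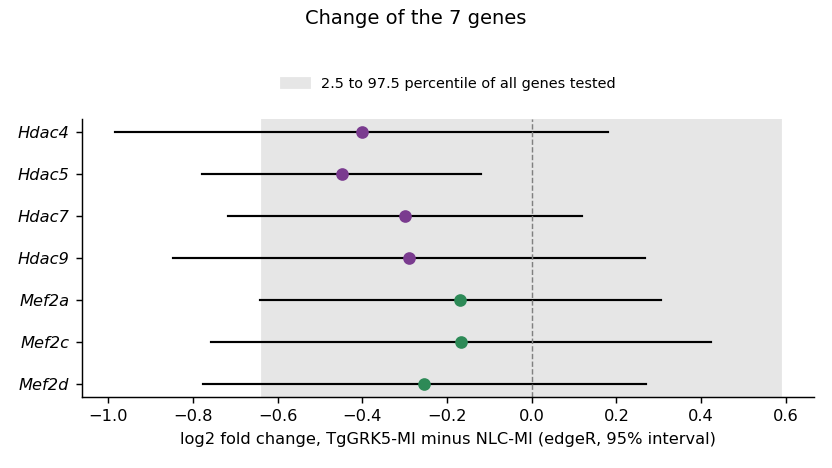
Log2 fold change of each gene, TgGRK5-MI minus NLC-MI, from edgeR with its 95% interval (deacetylases in purple, MEF2 genes in green). The grey band spans the central 95% of all genes tested. All 7 points lie inside the band and left of 0, and the interval of Hdac5 alone stays below 0.

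Hdac5, the class IIa member best known as a substrate of GRK5 in cardiomyocytes, came closest to a difference. Its levels were 75.6, 89.5, 66.5, 79.2 and 105 CPM in NLC-MI replicates 1 to 5, and 67.6, 69.7, 58.1, 51.0 and 58.0 CPM in TgGRK5-MI replicates 1 to 5. All 5 TgGRK5-MI libraries lay below the median of NLC-MI and 3 lay below every NLC-MI library, and the groups overlapped through the lowest control, NLC-MI replicate 3, which is 1 of the 3 libraries with the fewest counts. The means were 83.1 ± 14.7 and 60.9 ± 7.71 CPM (SD, n = 5), or 0.733-fold with a 95% interval from 0.583 to 0.921. The log2 fold change was -0.45 ± 0.15 (SE), with p = 0.0120 and an adjusted p of 1 by edgeR, and the exact two-sided permutation test over libraries gave p = 0.0238, where the smallest p it can give is 0.00794. Hdac5 stood at rank 179 of the 15232 genes when ordered by p.

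In the 7 deeper libraries, Hdac5 was at 87.3 ± 13.1 CPM in the 4 from NLC-MI and 65.1 ± 6.25 CPM in the 3 from TgGRK5-MI, with a log2 fold change of -0.43, and the groups did not overlap there, as for 4.68% of all genes tested. The exact two-sided permutation test of these 7 libraries gave p = 0.0571, with 0.0286 as the smallest p it can give. In the 3 shallower libraries the order was the same, with 66.5 CPM in the control and 51.0 and 58.1 CPM in the transgenic libraries. Over all 10 libraries, groups overlapped for 7 of the 7 genes, and 1.00% of all genes tested had groups that did not overlap.

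**Figure D3:**
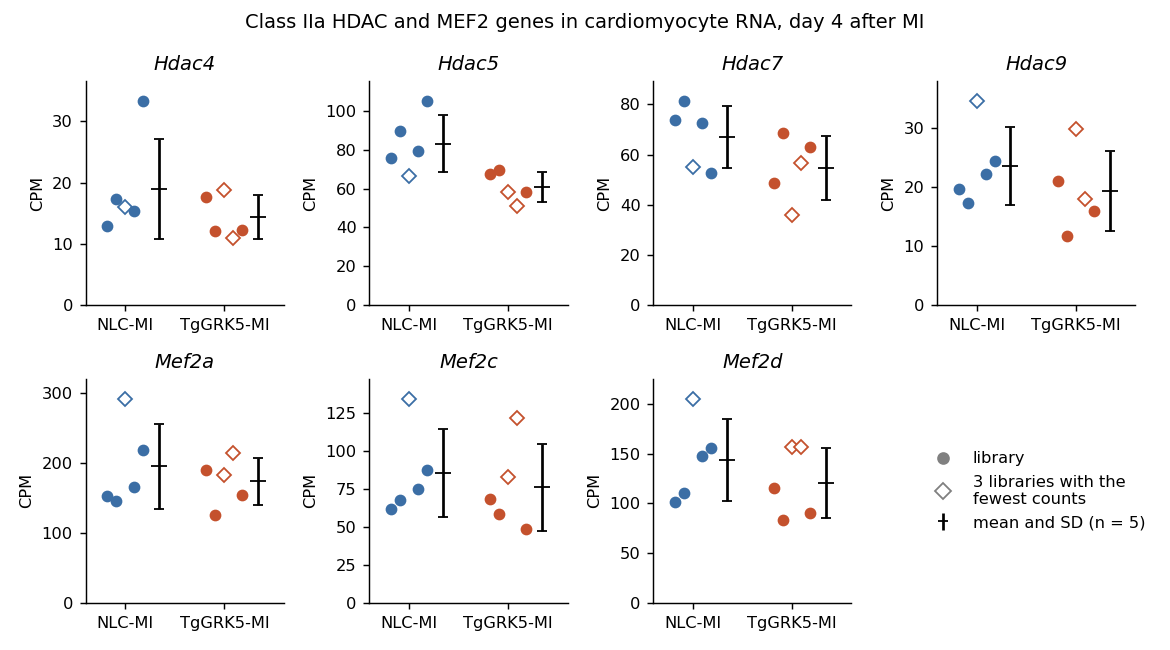
CPM of each gene in each library, with the mean and SD of each group (n = 5). Open diamonds are the 3 libraries with the fewest counts. For Hdac5, 3 of the 5 TgGRK5-MI points lie below every NLC-MI point and the other 2 near the lowest, and for the MEF2 genes the open diamonds are among the highest 3 points of their groups.

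Hdac4, the class IIa deacetylase that brings CaMKII signals to MEF2 in muscle, was measured at 13.0, 17.4, 16.0, 15.4 and 33.3 CPM in NLC-MI against 17.7, 12.1, 18.8, 11.0 and 12.3 CPM in TgGRK5-MI. A single control, NLC-MI replicate 5, was far above the other 9 libraries, which spanned both groups and overlapped. The means were 19.0 ± 8.13 and 14.4 ± 3.57 CPM (SD, n = 5), with a log2 fold change of -0.40 (95% interval -0.98 to 0.18, edgeR p = 0.159, exact permutation p = 0.278). The log2 fold change was -0.11 without NLC-MI replicate 5 and -0.50 in the 7 deeper libraries.

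Hdac7 was measured at 73.7, 81.2, 55.2, 72.7 and 52.9 CPM in NLC-MI against 48.7, 68.5, 36.1, 56.8 and 62.9 CPM in TgGRK5-MI. All 5 TgGRK5-MI libraries were below the NLC-MI median, 2 were below every control, and the groups overlapped. The means were 67.1 ± 12.4 and 54.6 ± 12.7 CPM (SD, n = 5), with a log2 fold change of -0.30 (95% interval -0.72 to 0.12, edgeR p = 0.145, exact permutation p = 0.167), and it was -0.23 in the 7 deeper libraries.

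Hdac9, which also gives rise to the MEF2-interacting repressor MITR that lacks the deacetylase domain, was measured at 19.7, 17.3, 34.4, 22.1 and 24.3 CPM in NLC-MI against 20.9, 11.7, 29.7, 18.0 and 15.9 CPM in TgGRK5-MI. The highest library of each group was its replicate 3, both of low depth, and the groups overlapped. The log2 fold change was -0.29 (95% interval -0.85 to 0.27, edgeR p = 0.280, exact permutation p = 0.278), and it was -0.37 in the 7 deeper libraries. The counts are per gene, so that MITR and full-length HDAC9 transcripts were not separated.

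Summed per length, the 4 deacetylases came to 22.2 ± 2.05 CPM per kb in NLC-MI, with a range of 19.1 to 24.5, and 17.2 ± 1.70 CPM per kb in TgGRK5-MI, with a range of 15.2 to 19.6 (SD, n = 5). TgGRK5-MI replicate 2 alone was above the lowest control, NLC-MI replicate 3. This sum rests on Hdac7 and Hdac5, and it is given as a description with no test.

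The 3 MEF2 genes differed less between the groups than among mice of one group. Mef2a was measured at 153, 146, 291, 166 and 219 CPM in NLC-MI against 190, 126, 183, 214 and 155 CPM in TgGRK5-MI, with the highest value in NLC-MI replicate 3 and overlapping groups. Its log2 fold change was -0.17 (95% interval -0.64 to 0.31, edgeR p = 0.453, exact permutation p = 0.563), and it was 0.02 without NLC-MI replicate 3, -0.25 without TgGRK5-MI replicate 4 and -0.13 without all 3 libraries of low depth.

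Mef2c was measured at 62.0, 68.1, 134, 75.3 and 87.7 CPM in NLC-MI against 68.4, 58.5, 82.7, 122 and 49.0 CPM in TgGRK5-MI. The highest library of each group was one of low depth, and the groups overlapped. Its log2 fold change was -0.17 (95% interval -0.76 to 0.42, edgeR p = 0.549, exact permutation p = 0.548), and it was 0.05 without NLC-MI replicate 3, -0.40 without TgGRK5-MI replicate 4 and -0.33 without all 3 libraries of low depth.

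Mef2d was measured at 101, 111, 205, 148 and 156 CPM in NLC-MI against 116, 83.5, 157, 157 and 90.5 CPM in TgGRK5-MI. NLC-MI replicate 3 was again the highest library, and the other 9 overlapped. Its log2 fold change was -0.25 (95% interval -0.78 to 0.27, edgeR p = 0.311, exact permutation p = 0.341), and it was -0.09 without NLC-MI replicate 3, -0.37 without TgGRK5-MI replicate 4 and -0.42 without all 3 libraries of low depth. The 3 intervals leave room for falls and rises of the MEF2 transcripts of a size that 5 libraries a group could not resolve.

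The MEF2 sum per length was 42.8 ± 12.7 CPM per kb in NLC-MI and 36.9 ± 9.57 CPM per kb in TgGRK5-MI (SD, n = 5). The ratio of the MEF2 sum to the class IIa sum was 1.97 ± 0.776 in NLC-MI and 2.19 ± 0.749 in TgGRK5-MI. It was highest in the 3 libraries of low depth, at 3.28 in NLC-MI replicate 3, 2.90 in TgGRK5-MI replicate 3 and 3.01 in TgGRK5-MI replicate 4, and lay between 1.34 and 2.10 in the other 7.

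Depth moved with the MEF2 genes. The Pearson correlation of log2 CPM with the log2 total of a library, group means left in, was -0.853 for Mef2c (adjusted permutation p = 0.0191 over 7 genes, n = 10), -0.791 for Mef2a (adjusted p = 0.0191) and -0.743 for Mef2d (adjusted p = 0.0265). Spearman's rho was -0.673, -0.709 and -0.709, with an adjusted permutation p of 0.0910 for each. Without the 2 libraries farthest from the median depth, r was -0.387, -0.444 and -0.514, and within the 7 deeper libraries it was -0.0499, -0.479 and -0.221. The relations of the MEF2 genes therefore rest on the libraries of low depth. For Hdac4, Hdac5, Hdac7 and Hdac9, r was 0.119, 0.531, 0.464 and -0.554, with an adjusted permutation p between 0.161 and 0.745. Without the 2 libraries farthest from the median depth, r of these 4 was -0.312, 0.373, 0.798 and -0.622. Within the 7 deeper libraries it was -0.37, -0.0902, 0.412 and -0.257. The part of depth in the levels of the 7 genes was not tested further.

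Across mice of a group, 12 of the 21 pairs had r above 0 and 9 had r below 0. Of the 21 pairs, 7, of which 5 were positive and 2 negative, had an adjusted permutation p under 0.05 for both Pearson's r and Spearman's rho of log2 CPM with group means removed (n = 10). The 3 MEF2 genes varied with one another, with r = 0.908 for Mef2c and Mef2d (adjusted p = 0.00105, rho = 0.903), 0.885 for Mef2a and Mef2d (adjusted p = 0.00635, rho = 0.830) and 0.859 for Mef2a and Mef2c (adjusted p = 0.00635, rho = 0.794). Within the 7 deeper libraries r was 0.837, 0.850 and 0.707, and without the 2 libraries farthest from the median of the first gene of a pair it was 0.908, 0.815 and 0.801.

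Hdac9 went with Mef2a and Mef2d, and Hdac7 ran against Hdac9 and Mef2d. Hdac9, itself known as a gene that MEF2 switches on, had r = 0.845 with Mef2d (adjusted permutation p = 0.00676, rho = 0.867) and 0.795 with Mef2a (adjusted p = 0.0206, rho = 0.818). Hdac7 had r = -0.919 with Hdac9 (adjusted p = 0.00105, rho = -0.952) and -0.758 with Mef2d (adjusted p = 0.0415, rho = -0.842). Within the 7 deeper libraries these 4 values were 0.814, 0.922, -0.859 and -0.802, and without the 2 libraries farthest from the median they were 0.725, 0.835, -0.971 and -0.768. With group means left in, the 2 pairs of Hdac7 were weaker, at -0.570 with Hdac9 and -0.476 with Mef2d. For the 7 pairs the adjusted p of rho was between 0.00336 and 0.0268. Hdac4 had r = 0.656 with Hdac5 (adjusted p = 0.0817) and -0.691 with Hdac7 (adjusted p = 0.0592), which did not pass. Within the 7 deeper libraries these were 0.844 and -0.862. Hdac5 changed sign there with Hdac7 (0.0434 to -0.537), Hdac9 (-0.38 to 0.106), Mef2a (-0.408 to 0.432), Mef2c (-0.483 to 0.778) and Mef2d (-0.426 to 0.439). Hdac4 rose with Mef2a (0.294 to 0.835), Mef2c (0.0917 to 0.826) and Mef2d (0.307 to 0.739). All pairs without Hdac5 kept their sign. All points share the same scaling of a library, so that a gene taking more of a library leaves less for the others.

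**Figure D4:**
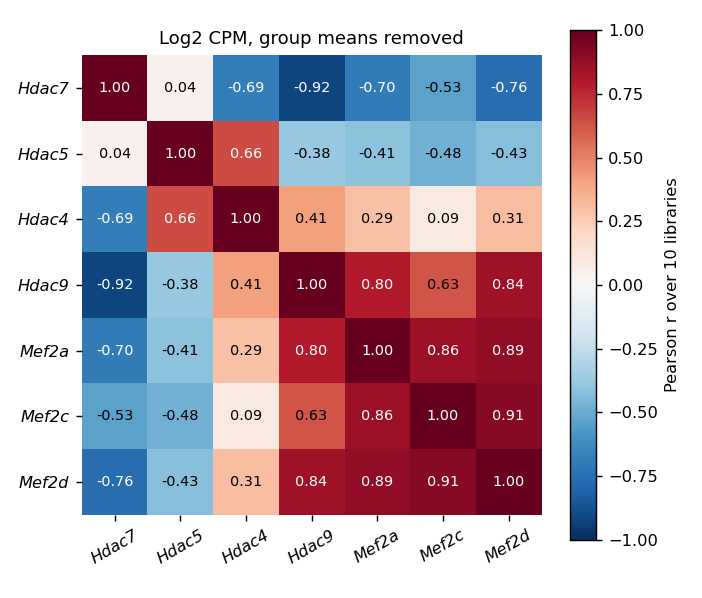
Pearson's r between the 7 genes over 10 libraries, from log2 CPM with group means removed (red above 0, blue below 0). Hdac9, Mef2a, Mef2c and Mef2d form a block of positive values from 0.63 to 0.91, and Hdac7 is negative with each of them.

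The preparations held markers of other cells beside those of cardiomyocytes, and the levels of 6 of the 7 genes moved with at least 1 list. All 10 cardiomyocyte markers were detected in every library, with a summed level from 52606 to 134515 CPM in NLC-MI against from 55674 to 105613 CPM in TgGRK5-MI. Fibroblast markers (10 of 10 detected) summed to between 4103 and 24336 CPM and between 4268 and 25070 CPM, macrophage markers (10 of 10) to between 735 and 2143 CPM and between 1183 and 2423 CPM, and endothelial markers (10 of 10) to between 1012 and 1710 CPM and between 878 and 1770 CPM. No defining marker of these 4 lists was at 0 in any library, the ranges overlapped between groups, and none of their genes passed an adjusted p under 0.10 by edgeR. Of the cardiomyocyte markers, 7 of 10 had a log2 fold change below 0, with a median of -0.15, and 1 was lower at an unadjusted p under 0.05, the calcium release channel Ryr2 (log2 fold change -0.93, edgeR adjusted p = 0.968). All 10 macrophage markers had a log2 fold change above 0, with a median of 0.22, and 0 of them had an unadjusted p under 0.05. Over all genes tested, 49.8% had a log2 fold change below 0, and 2.08% were lower at an unadjusted p under 0.05 by edgeR.

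Of 28 relations between the 7 genes and the 4 summed marker lists, 10 had an adjusted permutation p under 0.05 for both r and rho (n = 10, group means removed). These relations were computed after the values had been seen. Hdac4 followed the cardiomyocyte markers (r = 0.918, adjusted p = 0.00644, 0.943 in the 7 deeper libraries). NLC-MI replicate 5, where Hdac4 was highest, also had the highest cardiomyocyte sum. With these markers Hdac5, Hdac9, Mef2a, Mef2c and Mef2d had r = 0.369, 0.638, 0.51, 0.335 and 0.604, none of which passed for both r and rho. In the 7 deeper libraries they were at 0.698, 0.683, 0.871, 0.815 and 0.887. Hdac7 ran against the cardiomyocyte markers (r = -0.808, adjusted p = 0.0230) and with those of fibroblasts (r = 0.785, adjusted p = 0.0295) and macrophages (r = 0.783, adjusted p = 0.0295).

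Mef2d, Mef2a and Hdac9 ran against the macrophage markers, with r = -0.882 (adjusted permutation p = 0.0197), -0.847 (adjusted p = 0.0212) and -0.795 (adjusted p = 0.0247). Mef2d and Hdac9 also ran against the fibroblast markers, with r = -0.766 (adjusted p = 0.0393) and -0.765 (adjusted p = 0.0295). With the macrophage and fibroblast markers Hdac5 had r = 0.0943 and 0.134, but -0.481 and -0.268 in the 7 deeper libraries. Hdac5 ran against the endothelial markers (r = -0.831, adjusted p = 0.0215, -0.732 in the 7 deeper libraries). Hdac4 had r = -0.717 with them (adjusted p = 0.0491, -0.765 in the 7), but its rho did not pass. Hdac9, Mef2a, Mef2c and Mef2d had 0.00236, 0.264, 0.416 and 0.248, but -0.533, -0.643, -0.85 and -0.579 in the 7. Hdac7 was at 0.264, and at 0.732 in the 7. For the 10 relations that passed, rho had the sign of r, with an adjusted permutation p between 0.0159 and 0.0460. Without the 2 libraries farthest from the median of the marker sum, r lay from -0.835 to -0.591 for the negative relations among these 10. For the positive ones it lay from 0.664 to 0.798. In the 7 deeper libraries the ranges were from -0.982 to -0.644 and from 0.670 to 0.943. Summed endothelial markers overlapped between the groups, and the part of other cells in the lower Hdac5 of TgGRK5-MI was not tested.

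**Figure D5:**
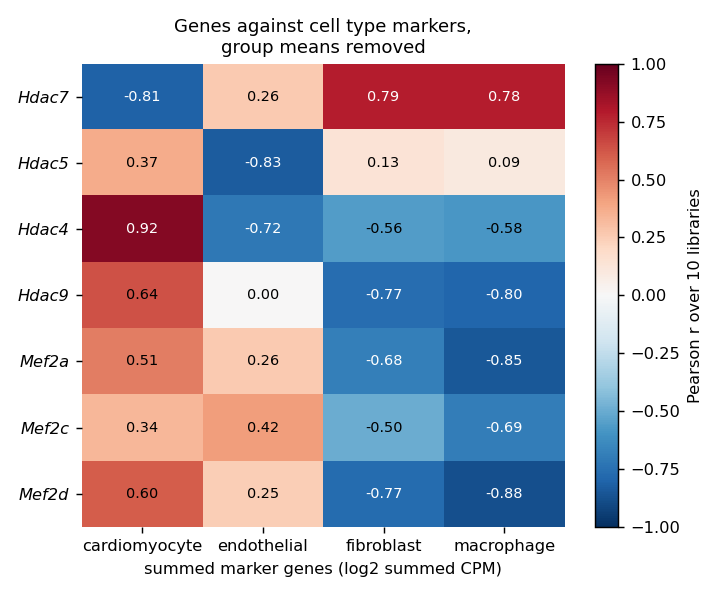
Pearson's r over 10 libraries between log2 CPM of each gene and the log2 summed CPM of 4 marker lists, group means removed. Hdac7 is positive with fibroblast and macrophage markers, while Hdac9 and the MEF2 genes are negative with both, and Hdac4 is the gene nearest to the cardiomyocyte markers.

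Genes whose levels ran close to each of the 7 were taken from 9708 tested genes with a mean of at least 10 CPM, by Pearson's r over 10 libraries with group means removed, and they are a description with no test. For Hdac4 these were Cpt2 (0.986) and Lrrc14b (0.982), for Hdac5 Plxnb1 (0.942), Trpm4 (0.939) and Rxra (0.939), for Hdac7 Rgs3 (0.983), Vps4b (0.982) and Notch3 (0.974), and for Hdac9 Gm10774 (0.965), Magi3 (0.960) and Kctd1 (0.956). For Mef2a they were Cul5 (0.978), Ccser2 (0.977) and Eif4g2 (0.974), for Mef2c Foxj2 (0.980), Tor1aip1 (0.978) and Pex3 (0.974), and for Mef2d Wbp2 (0.993), Cdh2 (0.987) and Phospho1 (0.985).

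The genes around the 7 in the pathway were counted by role, and none passed: the edgeR adjusted p of the genes named here was between 0.968 and 1. At an unadjusted p under 0.05 by edgeR, 2.08% of all genes tested were lower and 1.77% were higher. The counts of each list are to be read beside these shares. Of the 23 tested kinases and phosphatases that act on class IIa deacetylases, 1 was higher and 2 were lower at an unadjusted p under 0.05, with a median log2 fold change of -0.09. These 3 all encode subunits of CaMKII: Camk2b was at 6.73 ± 1.80 CPM in NLC-MI against 11.4 ± 3.27 CPM in TgGRK5-MI (log2 fold change 0.76), Camk2a at 45.7 ± 20.6 and 27.7 ± 8.58 CPM (-0.72), and Camk2g at 68.4 ± 8.65 and 54.1 ± 2.87 CPM (-0.34). Camk2d, the main cardiac isoform, was at 167 ± 36.3 and 159 ± 38.8 CPM (SD, n = 5, log2 fold change -0.07).

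Of the 7 14-3-3 genes, whose proteins hold phosphorylated deacetylases in the cytoplasm, 1 was lower at an unadjusted p under 0.05, namely Sfn, at 20.9 ± 9.29 CPM in NLC-MI against 11.0 ± 2.80 CPM in TgGRK5-MI (log2 fold change -0.92), and the median log2 fold change was 0.06. Of the 11 corepressor partners 0 had an unadjusted p under 0.05 by edgeR, with a median of -0.14, and the lowest p was that of Cbx5, the heterochromatin protein HP1 alpha (log2 fold change 0.24, 94.5 ± 9.18 against 111 ± 12.9 CPM). The 20 coactivators and upstream regulators of MEF2 had a median of -0.08, and 1 was lower, the chromatin remodeling ATPase Smarca4, at 133 ± 17.6 and 108 ± 7.21 CPM (log2 fold change -0.30).

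The 26 MEF2 target genes in muscle were split evenly, with 13 log2 fold changes above 0 and 13 below 0 and a median of -0.01, close to that of all genes. Only Jun, an immediate early gene that MEF2 controls, had an unadjusted p under 0.05 among them, at 268 ± 159 CPM in NLC-MI against 137 ± 57.1 CPM in TgGRK5-MI (SD, n = 5, log2 fold change -0.96). Among the 14 other deacetylases and sirtuins, 1 was lower at that threshold, Hdac6, the cytoplasmic tubulin deacetylase, at 27.2 ± 7.64 and 18.5 ± 1.14 CPM (log2 fold change -0.56), and the median was -0.05.

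The 7 genes lie on 7 chromosomes, and each has its own identifier. On GRCm38, Hdac4 (ENSMUSG00000026313) lies at chr1:91928779-92195699, Hdac5 (ENSMUSG00000008855) at chr11:102194432-102230166, Hdac7 (ENSMUSG00000022475) at chr15:97792664-97844502, Hdac9 (ENSMUSG00000004698) at chr12:34047580-34917095 and Mef2a (ENSMUSG00000030557) at chr7:67231163-67372858, all on the minus strand. Mef2c (ENSMUSG00000005583) at chr13:83504034-83667080 and Mef2d (ENSMUSG00000001419) at chr3:88142372-88172086 lie on the plus strand. No 50-base stretch of exon was shared between any of the 7, so that reads of that length could not be split among them. Of the 14943 such stretches of Mef2a, 545 (3.65%) also occurred in genes outside the 7. Lysmd4 held 253 of these, the most of any gene, and the other genes are not named here. Exons of Hdac4 overlap 3536 bases of the antisense gene Gm26720, which had 4 counts in all 10 libraries together, those of Mef2d overlap 531 bases of the antisense gene 1700113A16Rik (77 counts), those of Mef2a overlap 302 bases of Lysmd4 (2284 counts) and those of Hdac7 overlap 29 bases of Slc48a1 (14369 counts), both on the opposite strand. Hdac5 shares 111 bases with Mir8101 on the same strand, which had 0 counts. Whether counting used the strand is not given in the sources used here, and for these overlaps reads from the partner cannot be told apart without it.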

How the data were processed

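Cardiomyocyte RNA-seq libraries, 5 NLC-MI and 5 TgGRK5-MI, were compared, with groups and replicate numbers taken from the labels. The authors deposited whole-number counts per Ensembl gene for 51789 genes, not normalized. The submitters' processing notes name Bowtie2, RSEM 1.2.31, DESeq2 and the build mm10 without their roles, so that the counts may be rounded estimates. The annotation version and strand setting are not given in the sources used here. Libraries were made with a TruSeq kit from total RNA.

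Symbols, positions and lengths came from GENCODE M21 (GRCm38), which held 51596 of the identifiers. In R 4.3.3 with edgeR 4.0.16, counts were scaled with TMM, filtered with filterByExpr by group (15232 of 28506 genes with a total above 0) and compared with the quasi-likelihood F test, Benjamini-Hochberg adjusted over all genes tested, with 0.10 as the threshold. CPM was computed with TMM-scaled library sizes and log2 CPM with a prior count of 2. For single genes an exact permutation test over libraries, two-sided, stands beside it. Correlations used 100000 permutations over all libraries, also where group means had been removed. The removal was not allowed for, so those p-values are approximate and may be somewhat too small. Scripts were tested on simulated data. The depth was 7968779 to 23381527 counts a library, and Hdac4 had the fewest counts of the 7, from 102 to 508.

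The 7 genes, the pathway and marker lists and the tests were chosen with earlier results of these data known. All 7 genes are named, and from each pathway list up to 3 genes of lowest p in each direction with an unadjusted p under 0.05, or else the gene of lowest p. Camk2d was named after its values were seen. For each of the 7, up to 3 genes of most similar level are named, and 1 of those for Hdac4 is not reported here. Alternatives were RLE and library size scaling, DESeq2 1.42.0, limma 3.58.1 with voom and quality weights, 2 other filters, a replicate block and each library left out. After the data were seen, the 7 deeper libraries alone and depth as a covariate were added. Each library was taken as 1 mouse, as the study describes them.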

Additional observations from a re-analysis of the deposited data

Results flagged for a closer look

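Hdac4 was at 33.3 CPM in NLC-MI replicate 5, while the other 4 NLC-MI libraries lay between 13.0 and 17.4 CPM. The gap exceeded the 95% critical value of Dixon's test for 5 samples. It was 1 of 16 groups tested, and chance alone crosses this limit in about 1 group in 20. The same library had the highest summed level of cardiomyocyte markers, 134515 CPM. With that library left out, Hdac4 had a log2 fold change of -0.11 in place of -0.40.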

How the results depend on the processing

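Over 19 alternatives, 130 of the 133 log2 fold changes of the 7 genes were below 0 and 0 had an adjusted p under 0.10. The 3 above 0 were Mef2a with limma-voom (0.049) and Mef2a (0.021) and Mef2c (0.054) without NLC-MI replicate 3. With 1 library left out, the ranges were -0.52 to -0.11 for Hdac4, -0.52 to -0.36 for Hdac5, -0.39 to -0.19 for Hdac7, -0.51 to -0.12 for Hdac9, -0.26 to 0.02 for Mef2a, -0.40 to 0.05 for Mef2c and -0.38 to -0.09 for Mef2d. Hdac5 had an unadjusted p under 0.05 in 19 of 19 (0.00497 to 0.0306, adjusted p 0.287 to 1). Of all genes, 8 were higher and 4 lower at an adjusted p under 0.10. The counts higher were 13 with library size alone, 42 with DESeq2, 41 with limma-voom, 4 with at least 10 counts in every library, 13 with no filter, 4 in the 7 deeper libraries, and 2 to 7 with 1 library left out. The counts lower were 27 with DESeq2, 9 with limma-voom, 1 in the 7 deeper libraries, 8 with depth as a covariate, and 1 to 3 with 1 library left out. The causes were not tested. With the replicate block, 5 were higher and 3 lower, and no call of the 7 genes changed. Same-numbered libraries had correlations from -0.341 to 0.662, and 2 of the 10 correlated best with their own number, so the numbers were not taken to pair mice. The mean log2 difference of Mef2d over Mef2a was 0.80 per exon union and -0.46 per longest coding transcript. Without removal of group means 5 pairs passed in place of 7. The standard errors of the 7 log2 fold changes were between 0.15 and 0.27, which limits what 5 libraries a group can resolve.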

Other observations

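Markers of other cells that the text has not described were low or mixed. Neutrophil markers summed to between 25.5 and 96.8 CPM in NLC-MI and between 29.7 and 128 CPM in TgGRK5-MI, with Retnlg at 0 in at least 1 library. Lymphocyte markers summed to between 2.23 and 5.99 CPM and between 2.82 and 6.50 CPM, with Cd3e, Cd3d, Cd3g and Nkg7 at 0 in at least 1 library. Mural cell markers summed to between 1088 and 1918 CPM and between 1297 and 2119 CPM. Of these markers, 2 of 8 were lower at an unadjusted p under 0.05 by edgeR, against 2.08% of all genes lower and 1.77% higher. Of 5 RNAs that are retained in the nucleus, 1 was higher and 1 was lower at that threshold, and none of these 4 lists held a gene with an adjusted p under 0.10.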
